A study of Mus musculus with 8 samples.

Results

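The genes described here encode the proteins of the mitochondrial ribosome, taken as every gene on the array whose symbol starts with Mrpl or Mrps followed by a digit. The rule found 77 genes among the 19938 genes measured, in mouse hematopoietic stem cells after granulocyte colony-stimulating factor (G-CSF) or phosphate-buffered saline (PBS). The cells were sorted from bone marrow as KSL SLAM cells, which lack lineage markers, CD48 and CD41 and carry c-Kit, Sca-1 and CD150. The G-CSF group had 4 arrays, from mice injected under the skin with 125 mcg/kg 2 times a day, and the PBS group had 4 arrays, both at 36 h. Each array held cells pooled from 5 to 10 mice, and the labels used here name neither the age nor the strain of the mice. The series text describes the arrays of each group as independent.

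Mitochondria keep a small genome that encodes core subunits of the respiratory chain, and they translate it on ribosomes of their own. The large subunit of that ribosome carries the Mrpl proteins and forms peptide bonds, and the small subunit carries most of the Mrps proteins and reads the message. All of these proteins are encoded in the nucleus, made in the cytosol and imported, so their supply is set outside the organelle. Some descend from proteins of bacterial ribosomes and others were added during the evolution of mitochondria. Resting hematopoietic stem cells are known for low mitochondrial activity and for a low rate of protein synthesis, and both go up when the cells divide or differentiate.

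Of the 77 genes, 50 encode proteins of the large subunit and 26 of the small subunit. Mrps30 and Mrps18a are counted with the large subunit, where their proteins lie despite their names. Mrps36 is not classed, because its protein is now known as a part of the alpha-ketoglutarate dehydrogenase complex. The 77 genes were measured by 85 probe sets, and where a gene had several, as 8 of them did, the brightest was kept. The 2 probe sets of each of these 8 genes had log2 fold changes of the same sign. Whether a kept probe set of these 8 genes also matches a processed pseudogene was not tested. Mrpl53 shared its probe set with Ccdc142 and was left out.

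Promoter sequences are shown for the 3 genes related to bacterial protein S18, which differed from each other in their values, and for Mrps21 and Mrps23, both of the small subunit and both with separated groups. The windows come from RefSeq (GRCm38.p6) and were found for 68 of the 77 genes. Each line gives the 250 bases before the start, 5′ to 3′ on the strand of the gene, and capitals mark matches to the motifs named after the lines. Mrps18a lies at chr17:46110754-46111003 on the plus strand, Mrps18b at chr17:35916441-35916690 on the minus strand, Mrps18c at chr5:100798509-100798758 on the plus strand, Mrps21 at chr3:95871515-95871764 on the minus strand and Mrps23 at chr11:88204138-88204387 on the plus strand.
Mrps18a: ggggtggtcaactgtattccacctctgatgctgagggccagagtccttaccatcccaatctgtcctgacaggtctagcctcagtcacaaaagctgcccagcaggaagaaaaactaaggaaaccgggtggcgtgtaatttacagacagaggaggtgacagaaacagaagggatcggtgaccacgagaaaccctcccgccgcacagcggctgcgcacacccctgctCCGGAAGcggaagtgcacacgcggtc
Mrps18b: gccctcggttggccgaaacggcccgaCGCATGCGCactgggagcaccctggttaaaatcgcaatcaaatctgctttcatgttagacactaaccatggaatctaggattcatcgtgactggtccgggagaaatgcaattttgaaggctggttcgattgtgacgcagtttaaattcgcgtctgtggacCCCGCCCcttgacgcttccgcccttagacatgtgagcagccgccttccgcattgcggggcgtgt
Mrps18c: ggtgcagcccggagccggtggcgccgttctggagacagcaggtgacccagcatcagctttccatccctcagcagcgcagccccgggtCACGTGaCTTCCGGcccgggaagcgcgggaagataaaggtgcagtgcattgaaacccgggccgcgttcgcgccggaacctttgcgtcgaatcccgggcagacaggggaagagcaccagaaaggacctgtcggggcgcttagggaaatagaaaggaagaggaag
Mrps21: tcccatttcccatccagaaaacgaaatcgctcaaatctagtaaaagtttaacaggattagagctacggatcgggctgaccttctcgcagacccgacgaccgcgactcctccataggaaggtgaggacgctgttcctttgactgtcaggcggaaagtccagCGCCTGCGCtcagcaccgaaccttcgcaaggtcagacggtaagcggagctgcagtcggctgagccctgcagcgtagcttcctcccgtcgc
Mrps23: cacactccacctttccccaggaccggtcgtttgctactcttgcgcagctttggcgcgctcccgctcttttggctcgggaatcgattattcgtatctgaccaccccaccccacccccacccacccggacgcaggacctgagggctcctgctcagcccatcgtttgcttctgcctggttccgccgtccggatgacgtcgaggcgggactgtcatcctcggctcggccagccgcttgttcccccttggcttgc
The motifs were searched on both strands and may overlap. They were GCGCANGCG for nuclear respiratory factor NRF1, CCGGAAG for ETS factors such as GABP, ATGGCGG for YY1, GGGCGGG for SP factors, CACGTG for E-box factors such as MYC, and TTCNNNGAA for STAT factors.

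In these 5 windows, which run from 250 bases before to 50 bases after the start, an ETS match was present in each. It lay at -26 from the start in Mrps18a and at -156 in Mrps18c, where an E-box at -163 stood beside it. In Mrps18b, Mrps21 and Mrps23 the ETS match lay after the start, at 44, 19 and 16, and so outside the printed bases. NRF1 matches lay at -224 in Mrps18b and at -90 in Mrps21. An SP match lay at -64 in Mrps18b, and a YY1 match at 15 in Mrps18a. No STAT match was found in these 5 windows.

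Over all 68 windows of the family, 33.8% held an ETS match, against 12.5% of the 15614 windows of all genes measured and 19.4% of the 8076 windows of brighter genes. NRF1 matches were in 23.5% of the family, against 9.69% of all genes and 14.8% of brighter genes. YY1 matches were in 17.6%, against 5.73% and 9.1%. SP matches (42.6%, against 36.6% and 48.2%), E-boxes (7.35%, against 8.4% and 10.5%) and STAT matches (8.82%, against 7.79% and 6.85%) were closer to the shares of other genes. A match describes letters in a window and does not show binding. The 23 members with an ETS match had a median log2 fold change of 0.32 and the others 0.19. Medians with and without a match were 0.37 and 0.19 for STAT (6 members with a match) and 0.39 and 0.19 for E-boxes (5 members). They were 0.25 and 0.21 for NRF1, 0.16 and 0.23 for YY1, and 0.19 and 0.23 for SP. These are descriptions with no test.

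The windows of 23 of the 68 genes (33.8%) overlapped the window of a gene on the opposite strand that starts the other way, against 12.9% of all genes and 18% of brighter genes. In 1 such pair, Mrpl46 with Mrps11, both genes belong to the family. Of the 21 neighbours with a value, which include Mrpl46 and Mrps11 themselves, 12 had a positive log2 fold change and the median was 0.07. Over all genes 41.7% were positive, and 66.5% of brighter genes. All G-CSF values lay above all PBS values in 3.37% of all genes and 6.18% of brighter genes. Among the 21 neighbours 3 were separated in this way, and the groups of the others overlapped. These were Ska3, of the spindle and kinetochore complex, beside Mrpl57 (0.89, against 0.41 for Mrpl57), Ndufb5, a subunit of respiratory complex I, beside Mrpl47 (0.69, against 0.23), and Fau, which encodes a cytosolic ribosomal protein, beside Mrpl49 (0.60, against 0.38). These neighbours were named after their values were seen. Helq, beside Mrps18c, was not analysed here.

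**Figure D1:**
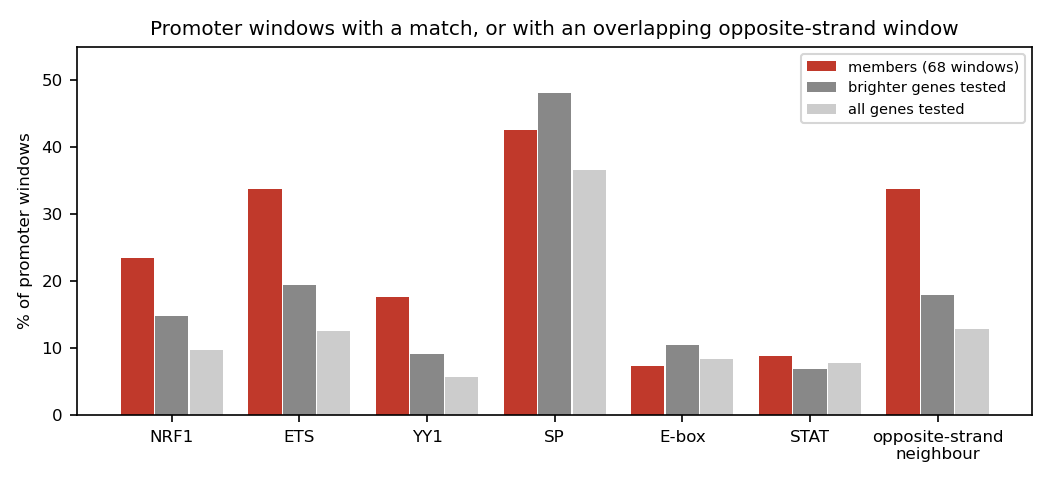
Share of promoter windows (vertical axis, percent) that hold a match to each motif, and, at the right, that overlap a window of a gene on the opposite strand, for the 68 members with a window (red), brighter genes (dark grey) and all genes (light grey). The red bars stand above both grey bars for NRF1, ETS, YY1 and neighbours, and close to them for SP, E-box and STAT.

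Intensities were compared on the log2 scale with limma, fitted over all 19938 genes, and p-values were adjusted by Benjamini-Hochberg over all of them with a threshold of 0.05. Among all genes 19 passed higher after G-CSF (0.0953%) and 0 passed lower (0%). Socs3, the feedback inhibitor of cytokine signalling, was 2.57-fold higher (limma adjusted p = 0.0198), as a check of the treatment, and Csf3r, which encodes the receptor for G-CSF, differed by 1.29 ± 0.21 SE on the log2 scale (limma adjusted p = 0.0585). Without PBS replicate 3 the log2 fold change of Csf3r was 1.46 and passed (limma adjusted p = 0.0125), and it also passed with array weights (limma adjusted p = 0.00387) and after quantile normalization of the 7 other arrays (limma adjusted p = 0.02). The log2 fold change of Socs3 no longer passed without G-CSF replicate 2 (limma adjusted p = 0.0911), without G-CSF replicate 4 (limma adjusted p = 0.0748) or under the 3 other treatments of probe sets (limma adjusted p from 0.0536 to 0.215). PBS replicate 3 stood apart, with an interquartile range of 1.68 log2 units over all genes against 2.41 to 2.80 on the other 7 arrays, and a correlation of at most 0.903 with any of them. Counts over the family, and the values of members named in the text that it moved by over 1.5 times, are given below with and without it. Medians of all genes were between 5.74 and 5.89 on each array.

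No gene of the family passed the adjusted threshold in either direction by limma. The lowest adjusted p = 0.195 belonged to Mrpl20. At an unadjusted p under 0.05, 11 of the 77 genes (14.3%) were higher after G-CSF, against 6.07% of all genes, and 0 were lower, against 2.94% of all genes. Of the 77 genes, 58 had a log2 fold change above 0 (75.3%), against 41.7% of all genes, and the median was 0.24, against -0.07 for all genes. Values ran from -0.38 for Mrps27 to 1.13 for Mrps18c, with quartiles of 0.02 and 0.44. The standard error of a single gene had a median of 0.24, as large as the median change itself. For 53 of the 77 genes the 95% interval lay between log2 changes of -1 and 1, so larger changes were outside the interval for those genes.

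The family is brighter than most genes on the array, and brighter genes as a whole were higher after G-CSF. Of the 77 genes, 76 lay among the 9969 genes at or above the median mean intensity, and Mrpl45 was the exception. Fitted among these 9969 genes alone, 8 of the 76 members (10.5%) were higher at an unadjusted p under 0.05, against 9.74% of the brighter genes, and 0 were lower, against 1.3%. Their groups did not overlap for 5 of 76 (6.58%), all higher, against 6.18% higher and 1.21% lower among brighter genes. The median was 0.24 against 0.13, and 76.3% were positive against 66.5%. The share of members past the unadjusted threshold was therefore near that of the brighter genes, whereas their median and positive share were higher. The brighter genes were not matched to the members in brightness.

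**Figure D2:**
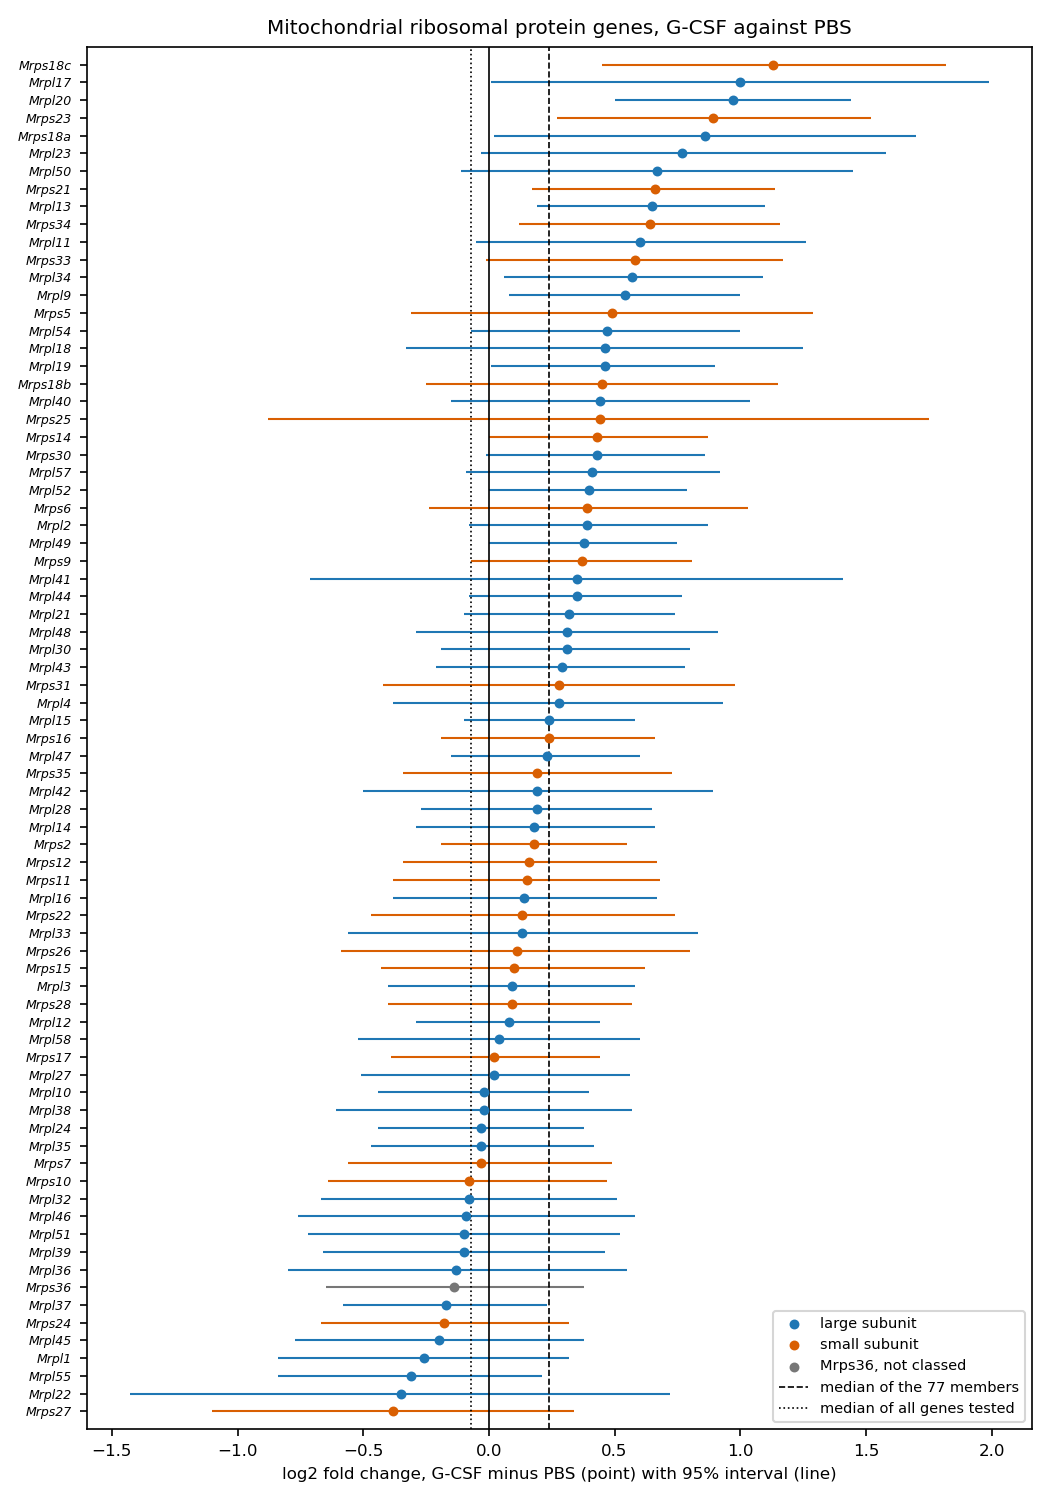
Log2 fold change, G-CSF minus PBS (horizontal axis), of each of the 77 genes (vertical axis, ordered by size), with points for the estimate and lines for the 95% interval, blue for the large subunit, orange for the small subunit and grey for Mrps36. The dashed line marks the median of the family (0.24) and the dotted line that of all genes (-0.07), and most intervals cross 0.

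The large subunit had a median log2 fold change of 0.26 with 36 of 50 genes positive, and the small subunit 0.21 with 22 of 26 positive. At an unadjusted p under 0.05, 7 large subunit genes (14%) and 4 small subunit genes (15.4%) were higher, against 6.07% of all genes. In the fit of brighter genes alone, 9.74% of genes were higher. There Mrpl17, Mrpl19 and Mrps18a, all of the large subunit, no longer passed the unadjusted threshold. Genes with a relative among bacterial ribosomal proteins had a median of 0.21 (37 of 48 positive), and genes classed as without one 0.30 (21 of 28 positive). At the unadjusted threshold, 9 of the 48 (18.8%) and 2 of the 28 (7.14%) were higher.

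In 5 genes the 4 G-CSF values lay above all 4 PBS values, which is 6.49% of the family, against 3.37% of all genes, and in 0 genes below, against 2.78%. These were Mrpl20, Mrps23, Mrps21, Mrpl13 and Mrpl15. Mrpl20 (probe set 10511149) encodes a relative of bacterial L20, a large subunit protein that binds ribosomal RNA. Its log2 intensity was 6.68, 6.32, 5.95 and 6.64 in PBS replicates 1 to 4 and 7.12, 7.29, 7.72 and 7.34 in G-CSF replicates 1 to 4. The lowest G-CSF value of Mrpl20 stood 0.44 above the highest PBS value. The G-CSF mean of 7.37 ± 0.25 (SD, n = 4) stood against a PBS mean of 6.40 ± 0.34 (SD, n = 4), a 1.96-fold difference (log2 fold change 0.97 ± 0.21 SE, limma adjusted p = 0.195). Without PBS replicate 3 it was 0.82 (unadjusted p = 0.0011), so most of the difference was present in the other arrays.

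Mrps23 (probe set 10380238) encodes a small subunit protein with no bacterial relative. It measured 7.09, 7.14, 5.78 and 6.96 in PBS replicates 1 to 4, against 7.78, 7.46, 7.74 and 7.56 in the G-CSF arrays. PBS replicate 3 was more than 1 log2 unit below the other PBS arrays. The log2 fold change of Mrps23 was 0.89 ± 0.28 SE (limma adjusted p = 0.388) with PBS replicate 3 and 0.57 without it, where the unadjusted p = 0.00249 and the limma adjusted p = 0.245. The groups stayed apart either way.

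Mrps21 (probe set 10500268) encodes the relative of bacterial S21. Its values were 8.12, 8.17, 7.30 and 7.57 after PBS and 8.21, 8.60, 8.52 and 8.46 after G-CSF, so PBS replicates 1 and 2 came close to the lowest G-CSF array. The log2 fold change was 0.66 ± 0.22 SE (limma adjusted p = 0.436). Mrpl13 (probe set 10428690), the relative of bacterial L13, measured 7.75, 7.49, 6.84 and 7.45 after PBS and 8.15, 8.10, 7.95 and 7.91 after G-CSF. The 4 G-CSF arrays of Mrpl13 lay close together (SD 0.11) and the log2 fold change was 0.65 ± 0.21 SE (limma adjusted p = 0.388). Mrpl15, the relative of bacterial L15, had the smallest change of the 5, with 6.64, 6.40, 6.54 and 6.67 after PBS and 6.85, 6.77, 6.70 and 6.90 after G-CSF. Its log2 fold change was 0.24 ± 0.15 SE (unadjusted p = 0.145), so it did not pass even the unadjusted threshold.

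**Figure D3:**
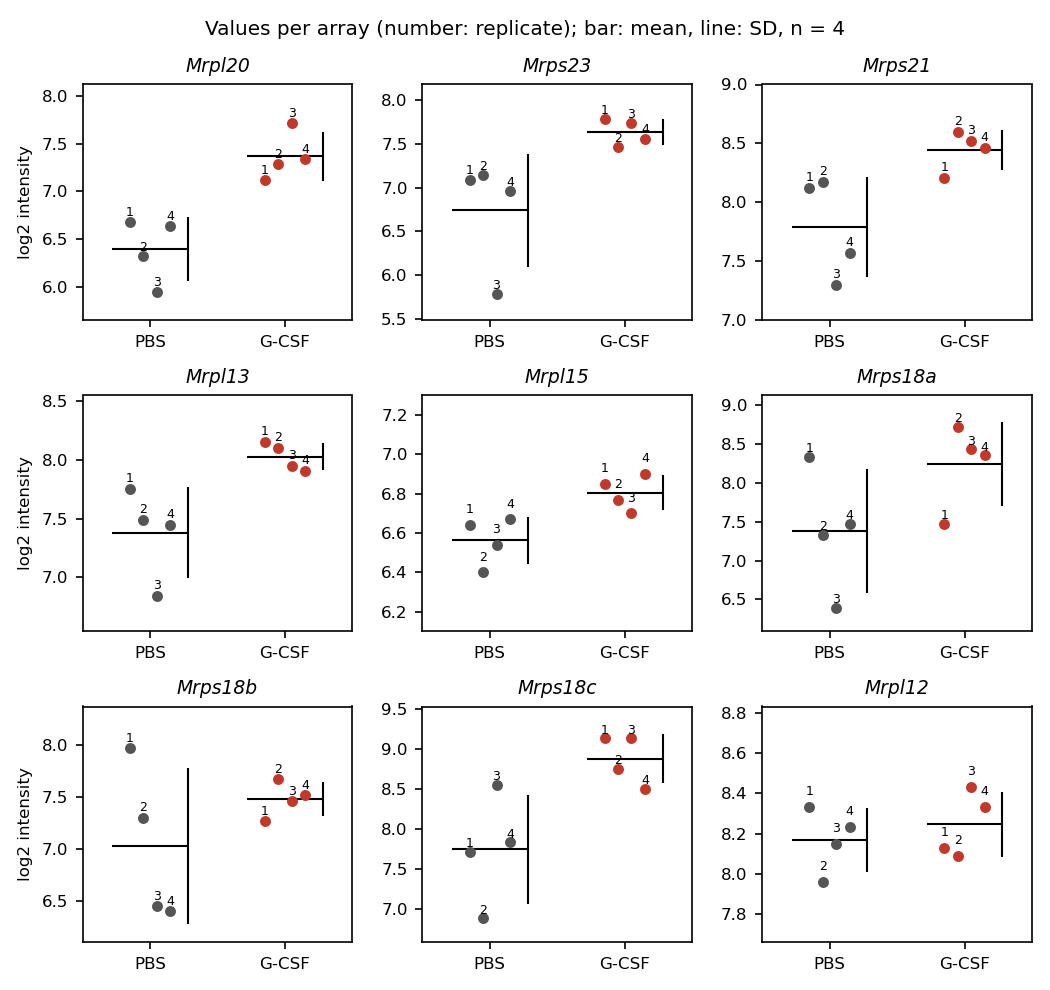
Log2 intensity (vertical axis, a scale of its own in each panel) of 9 genes on each of 4 PBS (grey) and 4 G-CSF (red) arrays, with replicate numbers beside the points, horizontal bars for means and vertical lines for 1 SD each way. The groups are apart for Mrpl20, Mrps23, Mrps21, Mrpl13 and Mrpl15 and overlap for Mrps18a, Mrps18b, Mrps18c and Mrpl12.

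Mammalian mitochondria have 3 relatives of bacterial S18, of which Mrps18b and Mrps18c are placed in the small subunit and Mrps18a in the large. Mrps18c (probe set 10523541) had the highest log2 fold change of the family. It measured 7.71, 6.88, 8.55 and 7.83 after PBS and 9.13, 8.75, 9.13 and 8.50 after G-CSF, and the groups overlapped because PBS replicate 3 was above G-CSF replicate 4. The log2 fold change was 1.13 ± 0.31 SE (2.19-fold, limma adjusted p = 0.311) and 1.40 without PBS replicate 3 (limma adjusted p = 0.118). Here PBS replicate 3 was the highest PBS array, whereas in Mrps23 it was the lowest.

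Mrps18a measured 8.33, 7.33, 6.39 and 7.47 after PBS and 7.47, 8.72, 8.43 and 8.35 after G-CSF. PBS replicate 1 lay among the higher G-CSF arrays, and the log2 fold change of 0.86 ± 0.38 SE (unadjusted p = 0.045) was 0.53 without PBS replicate 3 (unadjusted p = 0.136). Mrps18b measured 7.97, 7.30, 6.45 and 6.40 after PBS and 7.27, 7.67, 7.46 and 7.52 after G-CSF. Its highest value was that of a PBS array, and the log2 fold change was 0.45 ± 0.32 SE, with a 95% interval from -0.25 to 1.15. Single arrays moved the log2 fold change of Mrps18b, to 0.25 without PBS replicate 3, 0.24 without PBS replicate 4 and 0.76 without PBS replicate 1. All 3 relatives of S18 were thus positive, and only Mrps18c had an unadjusted p under 0.05 in each of the 18 alternative fits.

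The other genes past the unadjusted threshold had wider or smaller differences. Mrps34, a small subunit protein mutated in human mitochondrial disease, measured 6.82, 6.37, 6.55 and 6.41 after PBS and 6.79, 6.82, 7.34 and 7.76 after G-CSF, a log2 fold change of 0.64 ± 0.24 SE. The G-CSF arrays 3 and 4 carried that difference, and replicates 1 and 2 lay at the highest PBS value. The remaining 4 were named after their values were seen. Mrpl17, the relative of bacterial L17, had a log2 fold change of 1.00 ± 0.45 SE with PBS values from 4.53 to 7.22, and 0.50 without PBS replicate 3, which gave the value of 4.53. Mrpl34, Mrpl9 and Mrpl19 had 0.57, 0.54 and 0.46. Of the 11 genes, Mrpl20, Mrps18c, Mrps23, Mrps21 and Mrpl13 had an unadjusted p under 0.05 in all 18 alternative fits, whereas Mrps18a had it in 5, Mrpl17 and Mrpl19 in 6, Mrpl34 in 11, Mrps34 in 14 and Mrpl9 in 15.

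Several members studied for their own roles did not pass the unadjusted threshold with all arrays. Mrpl12, the stalk protein that also binds the mitochondrial RNA polymerase, measured 8.33, 7.96, 8.15 and 8.23 after PBS and 8.13, 8.09, 8.43 and 8.33 after G-CSF. Its log2 fold change was 0.08 ± 0.17 SE with a 95% interval from -0.29 to 0.44, one of the narrower intervals of the family. After quantile normalization of the 8 arrays, the log2 fold change of Mrpl12 was -0.09. Mrpl3, a relative of bacterial L3 that is mutated in human cardiomyopathy, had 0.09 (95% interval -0.40 to 0.58), -0.10 after that normalization and 0.21 without PBS replicate 3. Mrps22, mutated in human mitochondrial disease, had 0.13 (95% interval -0.47 to 0.74), -0.07 after that normalization and 0.41 without PBS replicate 3 (unadjusted p = 0.0418). Mrps16, also a disease gene, had 0.24 (95% interval -0.19 to 0.66) and 0.12 without PBS replicate 3, and Mrpl44, whose protein is related to ribonuclease III, 0.35 (95% interval -0.08 to 0.77). In all, 36 of the 77 genes had an absolute log2 fold change under 0.25, and 14 had one above 0.5.

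The 19 genes with a negative log2 fold change had small ones, and 4 were below -0.25. Mrps27, which encodes a small subunit protein with RNA-binding repeats, had the lowest. It measured 6.63, 5.74, 5.16 and 6.74 after PBS and 5.42, 5.68, 6.03 and 5.64 after G-CSF. PBS replicates 1 and 4 were the high arrays and PBS replicate 3 the lowest of the 8. The log2 fold change was -0.38 ± 0.33 SE (limma adjusted p = 0.651), and -0.68 without PBS replicate 3 (unadjusted p = 0.0247, limma adjusted p = 0.474). Leaving out PBS replicate 1 or 4 instead brought the log2 fold change of Mrps27 to -0.19 and -0.15. Mrpl22, the relative of bacterial L22, had -0.35 ± 0.49 SE, with 7.39 on G-CSF replicate 4 and 5.07 to 5.52 on the other G-CSF arrays. Without G-CSF replicate 4 the log2 fold change of Mrpl22 was -0.88, past the unadjusted threshold (limma adjusted p = 0.838), without PBS replicate 3 it was -0.61, and without PBS replicate 4 it was -0.11. Mrpl55, the relative of bacterial L31, had -0.31 ± 0.24 SE, Mrpl1, a protein of the L1 stalk, -0.26 ± 0.26 SE, and Mrpl45, which lies at the exit tunnel and helps to anchor the ribosome to the inner membrane, -0.20 ± 0.26 SE and -0.31 without PBS replicate 3. With all 8 arrays, the 95% interval of each of these 5 genes included 0.

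The 8 arrays did not divide cleanly by treatment over the family. The mean log2 intensity of the 77 genes was 7.58, 7.33, 7.15 and 7.38 in PBS replicates 1 to 4 and 7.49, 7.67, 7.58 and 7.70 in G-CSF replicates 1 to 4. PBS replicate 1 lay above G-CSF replicate 1, and the summed intensity overlapped too, from 14171 to 17426 after PBS and from 16520 to 19153 after G-CSF. PBS replicate 3 held the lowest of the 8 values in 30 genes and the highest in 9. PBS replicate 2 held the lowest in 20 genes, and G-CSF replicate 4 in 0. The deviation of a gene from its own mean had an SD of 0.65 over the family on PBS replicate 3, against 0.25 to 0.43 on the other arrays.

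**Figure D4:**
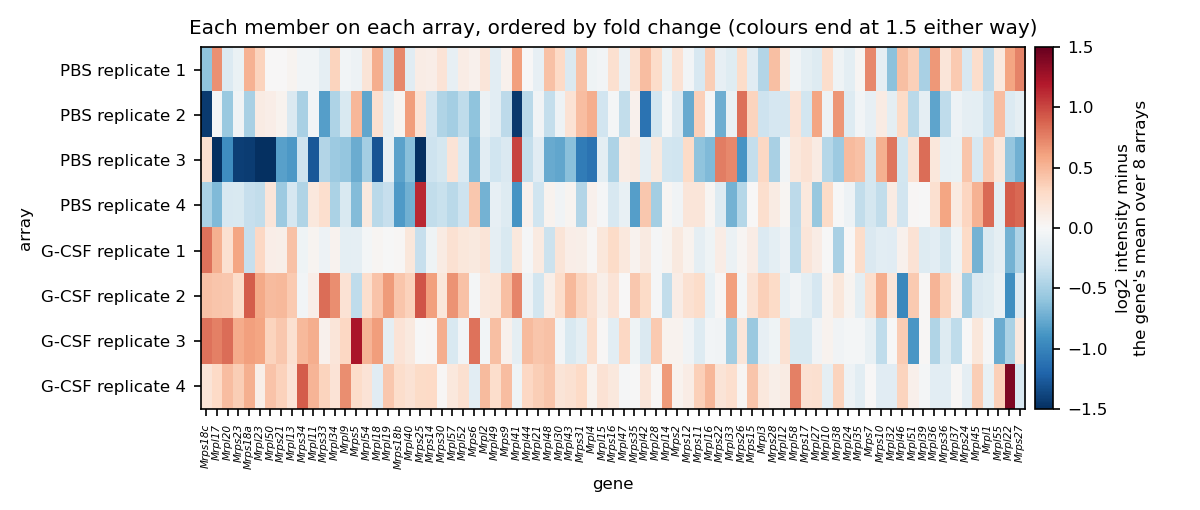
Log2 intensity of each of the 77 genes (horizontal axis, ordered by fold change from left to right) on each of the 8 arrays (vertical axis), minus the mean of that gene over the arrays, with red above and blue below. PBS replicate 3 has the deepest blue at the left, among genes with high fold changes other than Mrps18c, and red patches further right.

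Without PBS replicate 3 the median log2 fold change of the family was 0.18, against -0.02 for all genes. Of the family, 55 of 77 genes (71.4%) were positive, against 46.9% of all genes. At an unadjusted p under 0.05, 10 were higher (13%), against 5.64% of all genes, and 1, Mrps27, was lower (1.3%), against 3.12%. The groups did not overlap in 10 genes, all higher, against 4.76% of all genes higher and 3.94% lower. As deposited, the arrays differed in their interquartile ranges over all genes, so their values were not alike in distribution. After quantile normalization of all 8 arrays the median was 0.06, against -0.03 for all genes. In that setting 44 of 77 genes (57.1%) were positive, against 44.2% of all genes. There 6 members were higher (7.79%), against 4.32% of all genes, and 0 were lower, against 4.02%, and 3 had separated groups, all higher (3.9%), against 2.48% higher and 3.03% lower. Over all genes, 1211 were higher and 586 lower at the unadjusted threshold as deposited, 861 and 802 after quantile normalization, and 1072 and 892 after median centring. When quantile normalization was run on the 7 arrays other than PBS replicate 3, the median of the family was 0.10, 5 members were higher (6.49%), against 4.6% of all genes, 1 was lower (1.3%), against 4.46%, and 5 had separated groups, all higher (6.49%), against 4.15% higher and 4.84% lower. In none of the 18 alternatives did a member pass the adjusted threshold by limma, where the lowest adjusted p = 0.0772 belonged to Mrps18c with array weights.

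**Figure D5:**
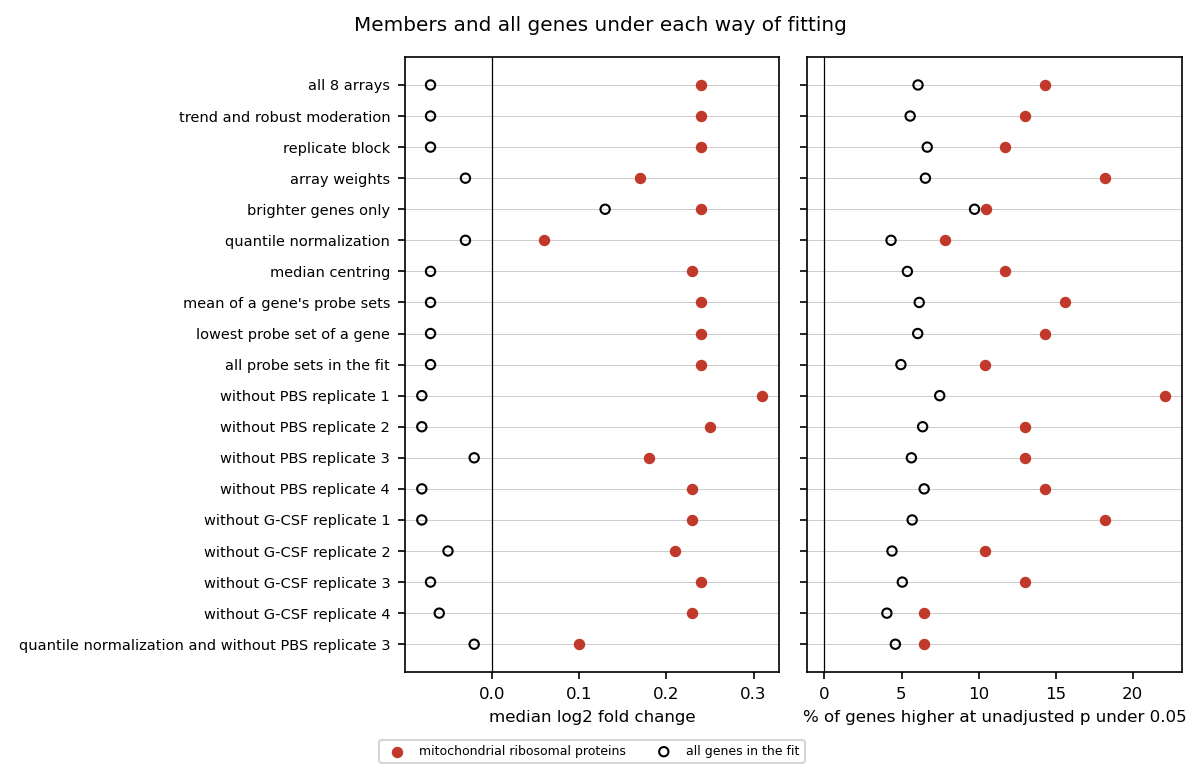
Median log2 fold change (left panel) and percentage of genes higher at an unadjusted p under 0.05 (right panel) for the family (red) and for all genes in the same fit (open circles), under each way of fitting (vertical axis). The family lies above all genes under each of them, least so after quantile normalization for the median (0.06 against -0.03) and among brighter genes for the percentage (10.5 against 9.74).

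The other genes of mitochondrial gene expression were described from lists of known members. Of 18 translation factors, 14 were positive and the median log2 fold change was 0.29, and 0 passed the adjusted threshold by limma. At the unadjusted threshold 2 were higher and 1 lower (11.1% against 6.07%, and 5.56% against 2.94%). Tufm, the elongation factor that brings charged tRNA to the ribosome, had 0.72 ± 0.21 SE (limma adjusted p = 0.34) with values of 6.69, 6.66, 6.53 and 5.91 after PBS and 6.87, 7.30, 7.23 and 7.27 after G-CSF. The 2 initiation factors went opposite ways without passing. Mtif3 had 0.67 ± 0.23 SE, with all G-CSF values above all PBS values, and Mtif2 had -0.57 ± 0.19 SE, with 7.43, 8.05, 7.73 and 8.04 after PBS and 7.32, 7.16, 7.11 and 7.38 after G-CSF, so all its G-CSF values lay below the PBS values.

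Of 27 assembly factors, 21 were positive with a median of 0.19, and 2 were higher at the unadjusted threshold, the helicase Ddx28 (0.89 ± 0.30 SE) and the assembly factor Rbfa (0.65 ± 0.23 SE), which is 7.41%, near the 6.07% of all genes. Of 18 aminoacyl-tRNA synthetases that act in mitochondria, 14 were positive with a median of 0.11, and 0 were past the unadjusted threshold in either direction. Of 16 genes of mitochondrial transcription and DNA maintenance, 9 were positive with a median of 0.11. Among these Tefm, the elongation factor of mitochondrial transcription, had 1.13 ± 0.29 SE (limma adjusted p = 0.277), and Polrmt, the polymerase, 0.22 ± 0.17 SE. The 4 ribosomal proteins whose symbols lack the Mrp prefix had a median of 0.22, with Dap3 at 0.38 ± 0.32 SE, Gadd45gip1 at 0.30 ± 0.20 SE and Ptcd3 at -0.24 ± 0.22 SE. Without PBS replicate 3, the log2 fold change of Dap3 was 0.01, the log2 fold change of Gadd45gip1 0.17 and the log2 fold change of Ptcd3 -0.11. None of these lists had a member past the adjusted threshold by limma. The products of mitochondrial translation are represented on the array, under the same rules, by 2 mitochondrial genes, COX2 with -0.06 ± 0.16 SE and ND3 with -0.16 ± 0.19 SE, both closer to 0 without PBS replicate 3 (the log2 fold change of COX2 was -0.01 and the log2 fold change of ND3 -0.03).

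Among 10 regulators of nuclear genes for mitochondria, 6 were positive with a median of 0.18 and 0 passed the adjusted threshold by limma. Gabpa, the ETS factor of the GABP complex, had 0.70 ± 0.34 SE with a PBS value of 6.54 in replicate 3 and 7.61 to 8.29 in the other PBS arrays, without which replicate the log2 fold change of Gabpa was 0.32. Nfe2l2, the regulator of antioxidant genes, had 0.80 ± 0.32 SE (unadjusted p = 0.0281), and without PBS replicate 3 the log2 fold change of Nfe2l2 was 0.51. The coactivator Ppargc1b had -0.27 ± 0.16 SE with all its G-CSF values below the PBS values. The 59 cytosolic ribosomal proteins had a lower median than the mitochondrial ones, 0.09 against 0.24, with 45 positive and 0 past the unadjusted threshold in either direction. Their groups did not overlap in 4 genes, all higher (6.78%), against 3.37% of all genes and 6.18% of brighter genes. The share in the mitochondrial family was 6.49%, and no difference between the families was tested.

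Summed intensities of neutrophil markers, of myeloid progenitor markers and of genes of division were higher on every G-CSF array than on any PBS array. The sum over all genes was separated too, from 2462528 to 2887547 after PBS and from 2947448 to 3109890 after G-CSF. In the lists of these markers and of genes of division, 1 gene passed the adjusted threshold by limma. At the unadjusted threshold 17 of 18 (94.4%), 7 of 10 (70%) and 18 of 29 (62.1%) were higher, in that order, against 6.07% of all genes. All 18 neutrophil markers were positive with a median of 1.82, and their summed intensity ran from 7537 to 17133 after PBS and from 18553 to 45987 after G-CSF. All 10 myeloid progenitor markers were positive with a median of 1.24 (summed 935 to 2341 after PBS and 2659 to 3875 after G-CSF), and 1 of them, Csf2rb, was past the adjusted threshold (1.59 ± 0.21 SE, limma adjusted p = 0.0198). The log2 fold change of Csf2rb no longer passed without G-CSF replicate 1, 2 or 4 (limma adjusted p = 0.0947, 0.0957 and 0.0941) or with all probe sets fitted (limma adjusted p = 0.122). All 29 genes of S phase and mitosis were positive with a median of 0.65, and their sums ran from 5618 to 6660 after PBS and from 7346 to 10434 after G-CSF. Erythroid, megakaryocyte, B cell, and T and NK cell markers had medians between -0.28 and -0.25, with sums that overlapped between the groups. At the unadjusted threshold 3 of 9 B cell markers (33.3%), 1 of 9 T and NK cell markers (11.1%) and 1 of 7 megakaryocyte markers (14.3%) were lower. Of 8 erythroid markers 0 were, against 2.94% of all genes, and 0 of these 4 lists' genes were higher, against 6.07%. The megakaryocyte marker was Ppbp (-1.25 ± 0.37 SE, limma adjusted p = 0.347). Stem cell markers had a median of -0.09. Kit, the gene of c-Kit, was bright in both groups (10.35 ± 0.12 after G-CSF and 10.70 ± 0.20 after PBS, SD, n = 4). The part of these markers in the values of the mitochondrial ribosomal proteins was not tested. In pooled cells, a change in the share of a cell type and a change in RNA per cell cannot be told apart.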

How the data were processed

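The deposited values are 1 linear intensity per probe set and array from 8 MoGene 1.0 ST arrays, and RMA is named in the submitters' processing notes. Its software and options: not given in the sources used here. RNA was purified on RNA XS columns and amplified with NuGen Ovation, per the labels' protocols. Of 35556 probe sets, 21789 carried 1 symbol in the platform annotation, and the brightest per gene was kept, which left 19938 genes. Probe set positions were not used here.

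Log2 intensities were fitted in R 4.3.3 by the lmFit and eBayes functions of limma 3.58.1 (2-sided, no filter), and the fit was tested on simulated arrays first. Array data give no counts, so the number of arrays limits the precision. Motifs were searched in RefSeq promoter windows of 300 bases, 1 per gene at its outermost listed start.

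The members, lists and rules were chosen with earlier results of these data known. The rule names members past the adjusted threshold, up to 12 with separated groups, the 6 with the lowest p, the 5 most negative, 8 chosen for their roles, and up to 3 genes of each other list. The alternatives were leaving out each array, array weights, other moderation, a block for replicate number, brighter genes only, centring on the median, quantile normalization and 3 other ways to treat several probe sets of a gene.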

Additional observations from a re-analysis of the deposited data

Results flagged for a closer look

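For the 19 named members, 30 other named genes and the mean of the family, 100 groups of 4 arrays were examined. Of these, 5 held an array far from the other 3. Chance gives about 1 in 20 if the groups are independent. The groups here shared the same arrays, and some genes were named for their values, so the total cannot be compared with that rate. PBS replicate 3 was the low array in 4 of the 5 groups. Its log2 intensity was 5.78 for Mrps23, 5.21 for Hars2, the mitochondrial histidyl-tRNA synthetase, 6.39 for Csf2rb, and 10.13 for Rpl8, a cytosolic ribosomal protein. In the fifth, G-CSF replicate 1 was the low G-CSF array for Tufm, at 6.87.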

How the results depend on the processing

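Over 18 alternatives, 0 members passed the adjusted threshold by limma, as with all arrays. The median log2 fold change of the family stayed positive and was 0.06 after quantile normalization and 0.18 to 0.31 when 1 array was left out. The number of members at an unadjusted p under 0.05 was 11 with all arrays, 6 after quantile normalization, 6 with that normalization on the arrays other than PBS replicate 3, and from 6 to 17 when 1 array was left out. The 6 without G-CSF replicate 4 were 5 higher (6.49%, against 4.05% of all genes) and Mrpl22 lower, and the 17 without PBS replicate 1 were all higher (22.1%, against 7.48%). The number with separated groups was 5 with all arrays, 3 after quantile normalization, and from 6 to 16 when 1 array was left out, all higher. It was 16 without PBS replicate 1 (20.8%, against 6.22% of all genes), 12 without G-CSF replicate 1 (15.6%, against 5.78%), 10 without PBS replicate 3 (13%, against 4.76%) and 9 without PBS replicate 4 (11.7%, against 5.17%), where fewer arrays make separation easier. With the replicate number as a block (replicate block), 9 members were higher at the unadjusted threshold (11.7%, against 6.67% of all genes). In that fit 0 were lower, against 2.95%, 0 were past the adjusted threshold, and the median was 0.24. Arrays of the same number did not deviate together (correlations of -0.025, 0.056, 0.062 and 0.135, with 2 of 8 arrays correlating best with their own number), so the numbers were not taken as pairs.

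Among the genes named by the rule, changes of sign occurred in Mrpl12, Mrpl3, Mrps22 and Mrpl45, near 0 with all arrays. They also occurred in Dap3, at 0.38 with all arrays. Other members changed sign too, such as Mrpl4, at 0.28 with all arrays and -0.04 without PBS replicate 3. After quantile normalization Mrpl12 was -0.09, Mrpl3 -0.10 and Mrps22 -0.07. With PBS replicate 3 left out as well, Mrpl12 was -0.01 and Dap3 -0.07. When 1 array was left out, Mrpl3 ran from -0.04 (without PBS replicate 1) to 0.21, with -0.02 without G-CSF replicate 2 and 0.00 without PBS replicate 2. Mrps22 ran from -0.09 (without PBS replicate 2) to 0.41 and Mrpl45 from -0.35 to 0.01 (without G-CSF replicate 1). The causes were not tested. No detection calls were used, so whether the dimmest members, near a mean log2 intensity of 5.75, were above background was not tested.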

Other observations

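Values of the family varied more among the PBS arrays than among the G-CSF arrays. The SD over 4 arrays was larger after PBS in 56 of 77 members (72.7%), close to the 73.6% of all genes, with medians of 0.42 after PBS and 0.25 after G-CSF. Without PBS replicate 3, the median PBS SD of the members was 0.34, and it exceeded that of the G-CSF arrays in 49 of 77 members (63.6%), against 47.4% of all genes and 56.4% of brighter genes. Mrps25 was chosen after its values were seen. Its PBS values ran from 4.53 to 7.99, and its log2 fold change was 0.44 with all arrays and -0.27 without PBS replicate 3.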
